A study of Homo sapiens with 12 samples.

Results

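The A20, TRAF and cIAP regulators are a set of 10 human genes whose products set the strength of signaling from receptors of the tumor necrosis factor (TNF) family. The rule that lists them names the genes and uses no measured value, although the set was chosen with earlier results of these data known, and all 10 were among the 21601 genes tested, out of 36315 genes paired with transcripts. TNFAIP3 (A20), TNIP1 and TNIP2 form the A20 group, TRAF1, TRAF2 and TRAF3 are adaptors, BIRC2 and BIRC3 encode cIAP1 and cIAP2, CYLD is a deubiquitinase, and MAP3K14 encodes the kinase NIK. Their RNA was measured by RNA-seq in HMC3 cells, an immortalized human line labelled as microglia, in 12 libraries that fell into 4 groups of 3. Every group was transfected for 48 h with an siRNA and was then given an Fc protein at 2 ug/ml for 24 h, pre-clustered with anti-human IgG for 1 h. Ctrl cells received negative control siRNA and Ctrl-Fc, and EphB2 cells received negative control siRNA and EphB2-Fc, a soluble form of the Eph receptor that engages ephrin-B ligands. Ephrin-B1 siRNA cells received siRNA to ephrin-B1 and Ctrl-Fc, and EphB2 + ephrin-B1 siRNA cells received that siRNA and EphB2-Fc. The cells are thus 1 transfected line, and no group went without siRNA, transfection reagent or a clustered Fc protein.

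When a TNF receptor is engaged, TRAF2 brings the ubiquitin ligases cIAP1 and cIAP2 to it, and the ubiquitin chains they build recruit kinases that free the transcription factor NF-kB. A20, with its ubiquitin-binding partners TNIP1 and TNIP2, and CYLD take such chains down or block them and so limit the signal. A second, non-canonical arm depends on NIK, which resting cells keep low because TRAF3, with TRAF2 and the cIAPs, marks it for degradation. The genes of A20 and cIAP2 are themselves well known targets of NF-kB.

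Depth was between 13230689 and 25785591 estimated counts per library. The siRNA target EFNB1, which encodes ephrin-B1, was at 19.1 ± 1.51 CPM (read counts normalised to the scaled size of the library) in Ctrl cells and at 7.47 ± 1.096 CPM in ephrin-B1 siRNA cells (SD, n = 3), so the knockdown was partial (log2 fold change -1.35, SE 0.13, adjusted p = 0.00124, edgeR). Of 11 markers of microglia, AIF1 had at most 0.5 estimated counts in a library and rounded to 0 in all 12, CX3CR1 and C1QA rounded to 0 in 11 libraries, SPI1 in 7 and P2RY12 in 6, while COL1A1 and VIM, which are mesenchymal, had medians of 3009 and 1850 CPM. Neither list ran 1 way. The mesenchymal markers COL3A1 and DCN had medians of only 0.0526 and 0.684 CPM. Among the microglia markers, CSF1R (median 2.36 CPM), TMEM119 (0.560 CPM), PTPRC (0.466 CPM) and TREM2 (0.445 CPM) had counts in every library. The summed level of the microglia markers, most of it CD68, was 24.6 to 32.2 CPM in Ctrl and 28.3 to 31.2 CPM in ephrin-B1 siRNA cells, against 33.6 to 47.5 CPM in EphB2 and 32.8 to 42.2 CPM in EphB2 + ephrin-B1 siRNA cells. The 9 mesenchymal markers summed to 6088 to 6595 CPM in Ctrl and 4865 to 5736 CPM in EphB2 cells, and to 5295 to 5710 CPM under ephrin-B1 siRNA and 4756 to 4991 CPM with both. Both sums moved with EphB2-Fc, and the mesenchymal sum was also lower under ephrin-B1 siRNA alone than in Ctrl, without overlap. The part of these sums in the results on the regulators was not tested. In bulk RNA, fewer cells that express a gene and less RNA of it per cell cannot be told apart.

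EphB2-Fc was followed by more RNA of 4 of the 10 regulators, BIRC3, TNFAIP3, TRAF3 and TNIP1. In the average of the EphB2 effect over both siRNA arms, BIRC3 rose 2.37-fold, TNFAIP3 2.00-fold, TRAF3 1.45-fold and TNIP1 1.39-fold, and none was called lower (edgeR quasi-likelihood test, adjusted p under 0.05 over all genes tested). Of the 10, 6 higher and 1 lower had an unadjusted p under 0.05 (13% of all genes), and by DESeq2 TRAF2 was also higher and MAP3K14 lower (3.73% of all genes passed). The share of all tested genes that passed was 1.03%, and 0.431% passed as higher. The 6 libraries with EphB2-Fc lay above all 6 libraries with Ctrl-Fc for these same 4 genes, which held for 0.926% of all genes. Of the 10 regulators 9 had a positive estimate, with a median log2 fold change of 0.33, where the median of all genes was 0.01 and 51.9% were positive. On the log2(TPM + 1) scale, which corrects for transcript length and understates changes of rare genes, the estimates stayed positive but were smaller, 0.62 for BIRC3, 0.43 for TNFAIP3, 0.31 for TRAF3 and 0.30 for TNIP1, and none passed (adjusted p of 0.142 to 0.413, limma). All genes shifted down on that scale, with a median of -0.11 and 27.7% positive, and 0.0926% of them passed. BIRC3 passed on that scale with the replicate number as a block (adjusted p = 0.0269, limma), where 6.47% of all genes did. Of these genes, 98 were higher and 1299 lower.

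**Figure D1:**
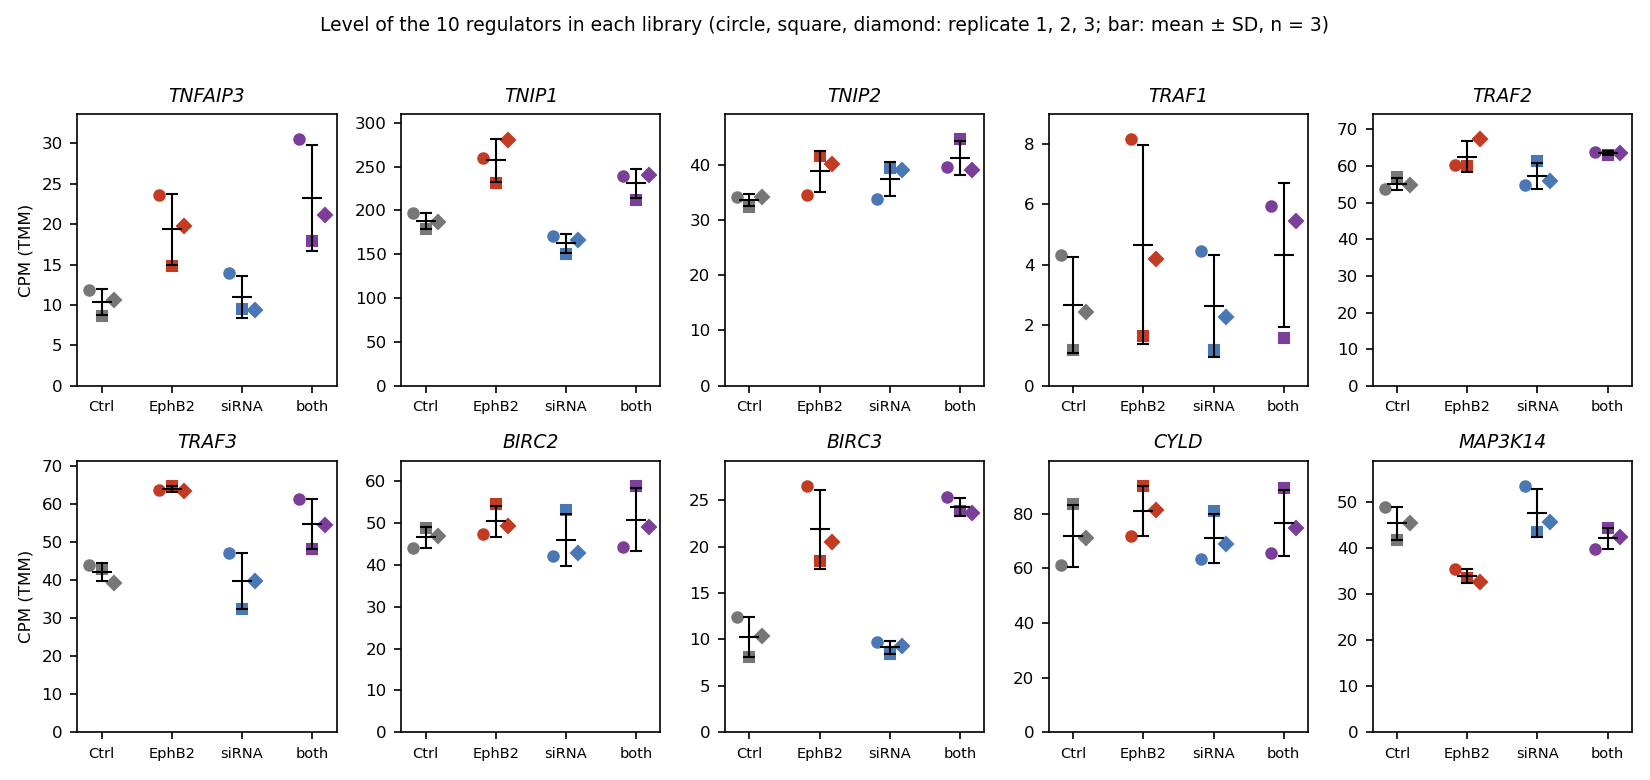
Level of each regulator in CPM (vertical axes, linear, from 0) in the 12 libraries, by group (horizontal axes: Ctrl, EphB2, ephrin-B1 siRNA as siRNA, and EphB2 + ephrin-B1 siRNA as both). Symbols are replicates 1, 2 and 3 and bars are mean ± SD (n = 3). TNFAIP3, TNIP1, TRAF3 and BIRC3 are higher in both groups with EphB2-Fc, and TRAF1 is lowest in replicate 2 of every group.

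The 4 genes lie on GRCh38 at chr11:102317484-102339403 (BIRC3, ENSG00000023445), chr6:137867214-137883314 (TNFAIP3, ENSG00000118503), chr14:102777449-102911500 (TRAF3, ENSG00000131323) and chr5:151029945-151093577 (TNIP1, ENSG00000145901). Their promoters are shown because these members rose together and each holds a match to the kappa B consensus, the sequence that NF-kB proteins bind. The part of these matches, or of NF-kB, in the rise was not tested. The match was searched on both strands with the 10-base consensus, in windows of 300 bases around RefSeq start sites (GRCh38.p14), and all 10 regulators had a window. A match was present in 7.09% of all 27305 genes with a window, and in 5 of the 10 regulators. The fifth was CYLD, with a match in 2 of its 3 windows. TNIP1 had a further window, which held no match. TNIP2, TRAF1, TRAF2, BIRC2 and MAP3K14 had none, which says only that these letters are not in those windows. The sequences below read 5′ to 3′ on the strand of the gene, with the matches in capitals, which lie on the opposite strand in TNFAIP3 and BIRC3 and on the same strand in TRAF3 and TNIP1. The TNFAIP3 stretch is chr6:137867009-137867238 (plus strand), with its matches at -67 to -58 and -55 to -46 from the start site, and 25 of its bases are exon of another TNFAIP3 transcript. The BIRC3 stretch is chr11:102317234-102317463 (plus strand), with matches at -199 to -190 and -135 to -126. The TRAF3 stretch is chr14:102777199-102777428 (plus strand), with 1 match at -33 to -24. For TNIP1, where first exons of other transcripts reach into the window, 30 bases are shown, of which 28 are exon of those transcripts, chr5:151081057-151081086 (minus strand), with 1 match at -42 to -33.
TNFAIP3: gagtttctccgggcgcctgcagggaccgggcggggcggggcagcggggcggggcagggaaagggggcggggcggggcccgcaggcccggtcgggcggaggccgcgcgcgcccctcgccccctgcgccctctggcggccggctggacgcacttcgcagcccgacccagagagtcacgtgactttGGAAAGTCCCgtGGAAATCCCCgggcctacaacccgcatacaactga
BIRC3: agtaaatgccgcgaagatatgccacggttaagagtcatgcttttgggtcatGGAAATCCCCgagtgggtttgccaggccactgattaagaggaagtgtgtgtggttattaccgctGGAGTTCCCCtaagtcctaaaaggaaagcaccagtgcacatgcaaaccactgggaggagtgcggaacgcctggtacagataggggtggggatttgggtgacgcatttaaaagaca
TRAF3: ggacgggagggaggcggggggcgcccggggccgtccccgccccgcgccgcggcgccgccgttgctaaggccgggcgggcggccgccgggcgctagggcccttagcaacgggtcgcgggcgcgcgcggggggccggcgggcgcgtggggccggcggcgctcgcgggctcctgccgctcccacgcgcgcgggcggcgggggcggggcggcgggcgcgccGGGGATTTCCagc
TNIP1: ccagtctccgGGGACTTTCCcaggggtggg

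**Figure D2:**
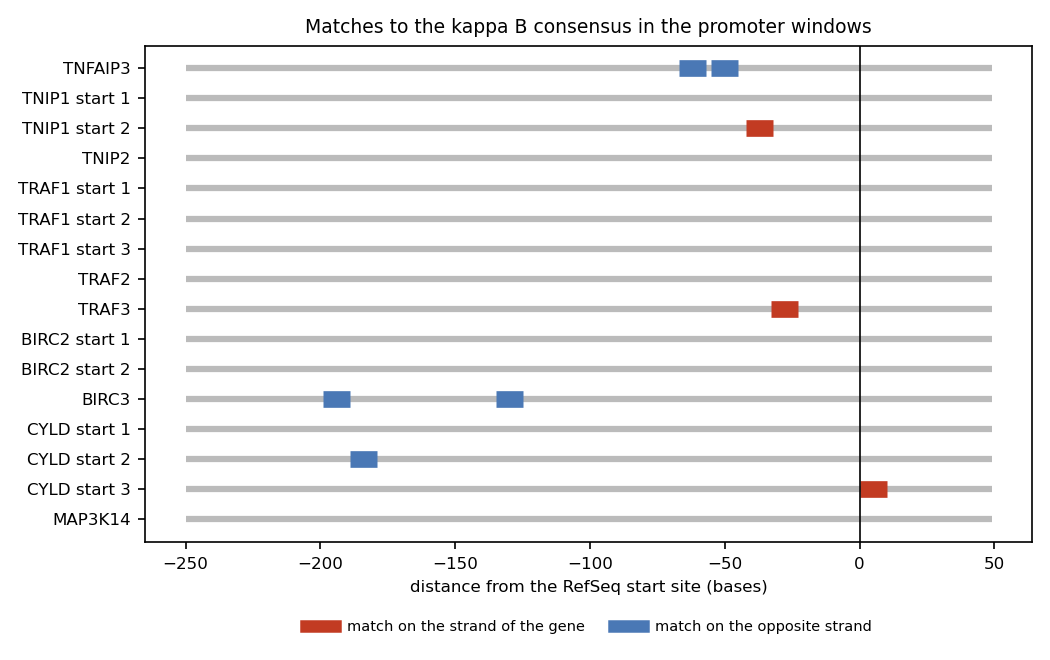
Matches to the kappa B consensus in the 16 promoter windows of the 10 regulators, by distance from the RefSeq start site in bases (horizontal axis). Grey lines are windows, red boxes are matches on the strand of the gene and blue boxes matches on the opposite strand. TNFAIP3, BIRC3 and CYLD have 2 matches each, and TNIP1 and TRAF3 have 1. At least 1 match is in 6 of the 16 windows, beside 5.91% of all 35116 windows.

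In Ctrl cells the regulators differed widely in level, compared here in TPM, the share of transcript molecules, which corrects for transcript length. TNIP1 was the highest at 109.4 ± 16.6 TPM (SD, n = 3), followed by TRAF2 at 51.8 ± 3.15 TPM. TNIP2, CYLD, BIRC2, TRAF3 and MAP3K14 followed, from 25.1 ± 3.49 TPM for TNIP2 to 16.0 ± 3.04 TPM for MAP3K14, and each overlapped its neighbor in this order. TNFAIP3 (6.64 ± 2.88 TPM), BIRC3 (3.27 ± 0.252 TPM) and TRAF1 (0.760 ± 0.523 TPM) were the 3 lowest, and their ranges did not overlap each other. Of the 4 regulators that rose, TNFAIP3 and BIRC3 were thus among the rarest in Ctrl cells and TNIP1 was the most abundant.

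TNFAIP3 encodes A20, the enzyme that edits and caps ubiquitin chains to end NF-kB signaling. It was at 11.8, 8.62 and 10.7 CPM in Ctrl replicates 1, 2 and 3 and at 23.6, 14.9 and 19.7 CPM in EphB2. Under ephrin-B1 siRNA it was at 14.0, 9.53 and 9.37 CPM, and at 30.6, 17.96 and 21.2 CPM once EphB2-Fc was added. Every library with EphB2-Fc was above every library with Ctrl-Fc, although EphB2 replicate 2, at 14.9 CPM, was close to ephrin-B1 siRNA replicate 1, at 14.0 CPM. The averaged log2 fold change was 1.00 (SE 0.17, adjusted p = 0.0236, edgeR). The call did not hold without any 1 of 6 libraries (Ctrl replicates 2 and 3, EphB2 replicate 3, ephrin-B1 siRNA replicates 2 and 3, EphB2 + ephrin-B1 siRNA replicate 3), where adjusted p was 0.0596 to 0.0833 (edgeR) and the log2 fold change 0.94 to 1.02. Per length the difference was smaller. TNFAIP3 was at 9.95, 4.66 and 5.32 TPM in Ctrl and at 10.1, 3.86 and 9.38 TPM in EphB2 cells, which overlap, and at 5.97, 3.42 and 3.54 TPM under ephrin-B1 siRNA and 8.79, 6.34 and 7.14 TPM with both, which do not. With an offset for transcript length the averaged estimate was 0.70 (SE 0.20, adjusted p = 0.207, edgeR). The share of its counts that kallisto gave to its main protein-coding transcript, of 4665 bases, ran from 0.0031% to 96.6% over the libraries, and the part of this split in the TPM was not tested.

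TNIP1 and TNIP2 encode the A20-binding proteins ABIN1 and ABIN2, which help A20 to reach its targets. TNIP1 was at 197, 179 and 187 CPM in Ctrl and at 260, 231 and 279.8 CPM in EphB2 cells. It was at 171, 151 and 166 CPM under ephrin-B1 siRNA and at 239, 212 and 241 CPM with both. The lowest level with EphB2-Fc, 212 CPM, was above the highest with Ctrl-Fc, 197 CPM, and all 6 same-numbered pairs were higher with EphB2-Fc, by 0.37 to 0.58 on the log2 scale. The averaged log2 fold change of TNIP1 was 0.48 (SE 0.061, adjusted p = 0.00487, edgeR). TNIP2 was at 33.5 ± 1.103 CPM in Ctrl and at 38.8 ± 3.70 CPM in EphB2 cells (SD, n = 3). Its averaged log2 fold change was 0.17 (SE 0.066, adjusted p = 0.278), and its adjusted p was 0.0312 with the replicate number as a block (both edgeR).

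TRAF1, TRAF2 and TRAF3 are adaptors that carry ligases to the tails of TNF receptors. TRAF3, which holds NIK down, was at 43.96, 43.0 and 39.4 CPM in Ctrl and at 63.8, 64.9 and 63.3 CPM in EphB2 cells. In the ephrin-B1 siRNA arm it was at 47.2, 32.5 and 39.8 CPM with Ctrl-Fc and at 61.4, 48.3 and 54.6 CPM with EphB2-Fc. The 3 EphB2 libraries lay close together, from 63.3 to 64.9 CPM, and the 2 Fc proteins did not overlap in either arm. TRAF3 was higher on average by 0.53 on the log2 scale (SE 0.088, adjusted p = 0.0197, edgeR). Without any 1 of 5 libraries (replicate 3 of each of the 4 groups, and EphB2 + ephrin-B1 siRNA replicate 1) its adjusted p was 0.0565 to 0.0748 (edgeR), with estimates of 0.48 to 0.54.

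TRAF2, which brings the cIAPs to the receptor, was at 55.1 ± 1.69 CPM in Ctrl and at 62.6 ± 4.20 CPM in EphB2 cells (SD, n = 3). Its averaged log2 fold change was 0.17 (SE 0.048, adjusted p = 0.144) and it was higher in 6 of 6 same-numbered pairs, with an adjusted p of 0.0123 under the block (both edgeR). TRAF1, an adaptor without a ligase domain that pairs with TRAF2, was rare, with 20 to 151 counts in a library. It was at 4.34, 1.19 and 2.46 CPM in Ctrl, 8.17, 1.64 and 4.20 CPM in EphB2, 4.47, 1.17 and 2.26 CPM in ephrin-B1 siRNA and 5.93, 1.58 and 5.45 CPM in EphB2 + ephrin-B1 siRNA cells. Replicate 2 was the lowest in all 4 groups and the groups overlapped. TRAF1 nevertheless was higher with EphB2-Fc in 6 of 6 same-numbered pairs, with an averaged estimate of 0.78 (SE 0.48, adjusted p = 0.555) and, with the block, of 0.74 (SE 0.14, adjusted p = 0.00286; both edgeR).

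BIRC2 and BIRC3 encode the related ubiquitin ligases cIAP1 and cIAP2, and only BIRC3 passed the test in the average EphB2 effect. BIRC3 was at 12.4, 8.11 and 10.3 CPM in Ctrl and at 26.6, 18.5 and 20.5 CPM in EphB2 cells. It was at 9.78, 8.42 and 9.33 CPM under ephrin-B1 siRNA and at 25.4, 23.9 and 23.6 CPM with both, so that the lowest level with EphB2-Fc was 18.5 CPM and the highest with Ctrl-Fc 12.4 CPM. BIRC3 had the largest averaged log2 fold change of the 10 regulators, 1.25 (SE 0.12, adjusted p = 0.00111, edgeR; 95% interval 0.99 to 1.505), and it passed without any single library. With an offset for transcript length it was 0.93 (SE 0.11, adjusted p = 0.00685, edgeR). BIRC2 was at 46.5 ± 2.45 CPM in Ctrl and at 50.3 ± 3.71 CPM in EphB2 cells (SD, n = 3). Its averaged log2 fold change was 0.13 (SE 0.084, adjusted p = 0.576, edgeR), with a 95% interval of -0.05 to 0.31, and the adjusted p with the block was 0.0583 (edgeR). The intervals of the log2 fold changes of BIRC2 and BIRC3 did not overlap. The difference between the genes was not tested.

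CYLD, which removes linear and K63-linked ubiquitin chains, was at 71.9 ± 11.2 CPM in Ctrl and at 81.1 ± 9.22 CPM in EphB2 cells (SD, n = 3). Its averaged log2 fold change was 0.14 (SE 0.10, adjusted p = 0.627), and with the block its adjusted p was 0.00766 (both edgeR). MAP3K14, which encodes NIK, had the only negative estimate. It was at 48.8, 41.8 and 45.4 CPM in Ctrl and at 35.5, 33.6 and 32.6 CPM in EphB2 cells, which did not overlap, but at 53.5, 43.5 and 45.7 CPM and 39.7, 44.3 and 42.3 CPM in the ephrin-B1 siRNA arm, which did. The averaged log2 fold change of MAP3K14 was -0.30 (SE 0.065, adjusted p = 0.0564; with the block, adjusted p = 0.00177, both edgeR), and by DESeq2 its adjusted p was 0.00466. A transcript that no gene was paired with had the same length and, within 0.001 counts, the same counts as 1 MAP3K14 transcript that held 5.99% of the counts of the gene, so reads of MAP3K14 may be split with that transcript and its level is uncertain by that share, which was 3.08% to 14.0% in single libraries.

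**Figure D3:**
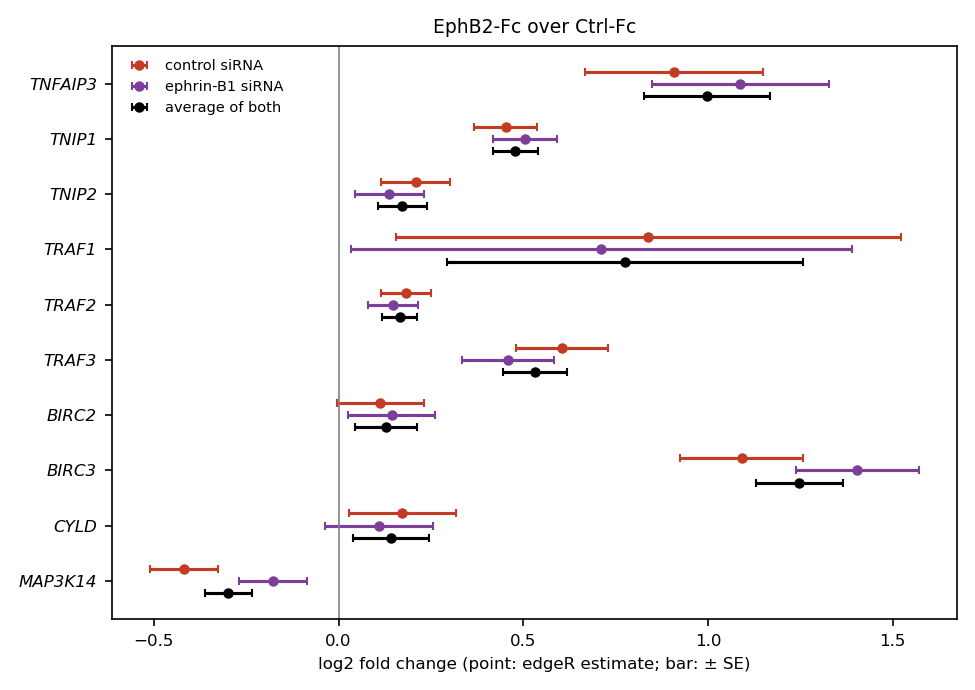
Log2 fold change of EphB2-Fc over Ctrl-Fc for each regulator (horizontal axis), with control siRNA (red), with ephrin-B1 siRNA (purple) and averaged over both (black). Points are edgeR estimates and bars ± SE. BIRC3 and TNFAIP3 lie near 1, TRAF3 and TNIP1 near 0.5, and MAP3K14 below 0.

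The comparison of EphB2- vs Ctrl-treated cells with control siRNA asks what EphB2-Fc does in cells with their full ephrin-B1. On the log2 scale the estimates were 1.09 for BIRC3 (SE 0.17), 0.91 for TNFAIP3 (SE 0.24), 0.84 for TRAF1 (SE 0.68), 0.60 for TRAF3 (SE 0.12), 0.45 for TNIP1 (SE 0.086) and -0.42 for MAP3K14 (SE 0.092), and the other 4 lay between 0.11 and 0.21. By edgeR 0 of 10 regulators passed, as against 0.037% of all genes, and the smallest adjusted p, that of BIRC3, was 0.0677. Without Ctrl replicate 1, BIRC3 passed (1.24, adjusted p = 0.0370, edgeR). Of the 10, 7 had an unadjusted p under 0.05 (7.56% of all genes). By DESeq2, 5 of 10 passed (4 higher and MAP3K14 lower), where 0.94% of all genes did. With the replicate number as a block in edgeR, 7 of 10 passed, BIRC3, TNFAIP3, TRAF3, TNIP1, TRAF1 and CYLD higher and MAP3K14 lower, where 5.34% of all genes did.

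With ephrin-B1 siRNA in both arms, EphB2-Fc raised BIRC3 2.65-fold (log2 fold change 1.40, SE 0.17, adjusted p = 0.00955, edgeR), the 1 of 10 regulators that passed, where 0.116% of all genes did. The estimate for TNFAIP3 was 1.09 (SE 0.24, adjusted p = 0.162), that for TNIP1 0.51 (SE 0.086, adjusted p = 0.0622) and that for TRAF3 0.46 (SE 0.12, adjusted p = 0.272, all edgeR). The BIRC3 call did not hold without ephrin-B1 siRNA replicate 2 or 3 or EphB2 + ephrin-B1 siRNA replicate 3 (adjusted p of 0.0518 to 0.0643, edgeR), nor with an offset for transcript length. TNIP1 also passed when EphB2 replicate 2 was left out. By DESeq2 BIRC3, TNFAIP3 and TNIP1 passed, where 1.25% of all genes did. With the block, 5 of 10 were higher (BIRC3, TNFAIP3, TNIP1, TRAF3 and TRAF1), beside 6.93% of all genes. In the average over both arms 9 of 10 passed with the block, all of them but BIRC2, with 8 higher and MAP3K14 lower. That share stood beside 14% of all genes, and 5.65% passed as higher. With the block but no replicate 3 libraries 5 of 10 passed, the 4 named first and MAP3K14, beside 5% of all genes, and TRAF1, TRAF2, TNIP2 and CYLD had adjusted p of 0.0629 to 0.202 (edgeR).

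Whether ephrin-B1 knockdown changed the response to EphB2-Fc was tested by the interaction, the EphB2 effect with ephrin-B1 siRNA minus that without. No regulator passed, as none of all genes did (0%), and 0 of 10 had an unadjusted p under 0.05 (2.31% of all genes; edgeR). By DESeq2 0 of 10 passed (0.00926% of all genes), and with the block 0 of 10 (0.00463%). With the block 2 of 10, both higher, had an unadjusted p under 0.05, beside 1449 of all 21601 genes (edgeR). The estimates and intervals that follow are from the fit without the block. The interaction of BIRC3 was 0.31 on the log2 scale (95% interval -0.20 to 0.82), that of TNFAIP3 0.18 (-0.56 to 0.92), that of TNIP1 0.05 (-0.21 to 0.32) and that of TRAF3 -0.15 (-0.53 to 0.24). For MAP3K14 it was 0.24 (-0.04 to 0.52), and for TRAF1 the interval was widest, from -2.23 to 1.98. At this spread a difference of the size of the EphB2 effect on TNIP1 lay outside the interval for TNIP1.

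The effect of ephrin-B1 siRNA was tested over both Fc proteins and within each. Averaged over both Fc proteins, 0 of 10 passed by edgeR (5.26% of all genes did), 2 of 10 had an unadjusted p under 0.05 (17.2%), and 0 of 10 passed by DESeq2 (8.86%). These were TNIP1, lower in 6 of 6 same-numbered pairs with an estimate of -0.18 (SE 0.061, adjusted p = 0.129), and MAP3K14, higher in 6 of 6 with 0.19 (SE 0.065, adjusted p = 0.132, both edgeR). With the block both passed, where 20.6% of all genes did. For BIRC3 the 95% interval of this effect was -0.26 to 0.25 on the log2 scale, and for TNFAIP3 it was -0.20 to 0.54.

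Within Ctrl-Fc cells, ephrin-B1 siRNA moved 0 of 10 regulators past the threshold (edgeR, 1.81% of all genes). Only TNIP1 had an unadjusted p under 0.05 (log2 fold change -0.21, SE 0.086; 12.1% of all genes), 0 of 10 passed by DESeq2 (4.66%), and TNIP1 alone passed with the block (13.6%). Within EphB2-Fc cells 0 of 10 passed by edgeR (0.616% of all genes), and only MAP3K14 had an unadjusted p under 0.05 (log2 fold change 0.31, SE 0.092; 10.4%). By DESeq2 0 of 10 passed there (3.05%), and with the block MAP3K14 passed as higher and TNIP1 as lower (9.93%). Cells with both treatments differed from Ctrl in BIRC3 (log2 fold change 1.24, SE 0.17, adjusted p = 0.00412) and TNFAIP3 (1.17, SE 0.24, adjusted p = 0.0321, both edgeR), 2 of 10 beside 2.01% of all genes. With the block 7 of 10 were higher there, the others being TRAF1, TRAF2, TRAF3, TNIP1 and TNIP2 (15.1% of all genes). The TNFAIP3 call did not hold without any 1 of 7 libraries (the 3 Ctrl replicates, EphB2 replicate 3, ephrin-B1 siRNA replicate 3 and EphB2 + ephrin-B1 siRNA replicates 1 and 3), where adjusted p was 0.0537 to 0.139 (edgeR). These comparisons share libraries with those described before.

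**Figure D4:**
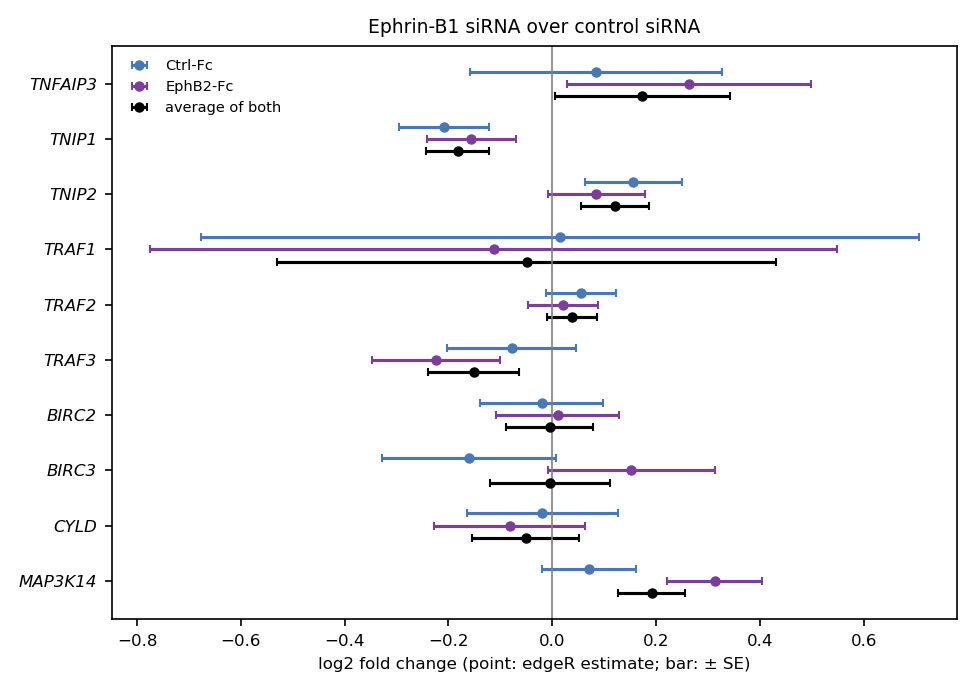
Log2 fold change of ephrin-B1 siRNA over control siRNA for each regulator (horizontal axis), under Ctrl-Fc (blue), under EphB2-Fc (purple) and averaged over both (black). Points are edgeR estimates and bars ± SE. Apart from TRAF1, whose SE is 0.48 for the average, the averages lie between -0.18 (TNIP1) and 0.19 (MAP3K14).

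Some regulators also differed between replicates 1 and 2 in the same direction in all 4 groups. TRAF1 was higher in replicate 1 than in replicate 2 by 1.87 to 2.31 on the log2 scale in the 4 groups, TNFAIP3 by 0.46 to 0.77 and BIRC3 by 0.09 to 0.62. CYLD was lower in replicate 1, with log2 ratios of -0.45 to -0.33, and BIRC2 with -0.41 to -0.15. Over all genes the median size of this ratio was 0.24 to 0.25. TRAF2, with -0.16 to 0.02, and TNIP1, with 0.14 to 0.18, were smaller than that in every group.

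**Figure D5:**
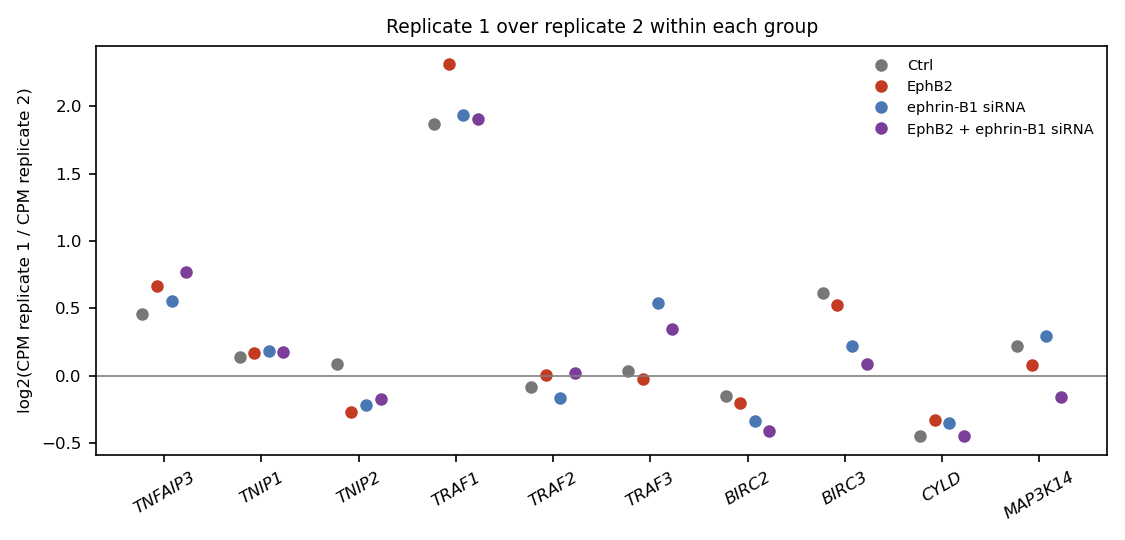
Log2 ratio of the CPM in replicate 1 over that in replicate 2 (vertical axis) for each regulator in the 4 groups (colors). TRAF1 lies near 2 in all groups, TNFAIP3 and BIRC3 are above 0 and CYLD and BIRC2 are below 0 in all groups.

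Across the 12 libraries, which share groups, replicate numbers and depth, the levels of some regulators ran together. On log2 CPM, Pearson's r was 0.93 for BIRC3 and TNFAIP3, 0.92 for TRAF3 and TNIP1, and 0.91 for CYLD and BIRC2. MAP3K14 had a negative r with each of the 9 other regulators, lowest with TNIP1 (-0.74). Among 14272 genes with a mean of at least 1 CPM, those most like BIRC3, the regulator with the largest rise, were IL32 (r = 0.97), IL6ST (0.96) and TMEM51 (0.96). Most like TNIP1, the most abundant, were TAPBP (0.96), HDAC9 (0.96) and MYOCD (0.95). Most like MAP3K14, the lowest in response, were SORL1 (0.93), CDC42BPA (0.92) and CASTOR2 (0.91).

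Of 73 other genes of the pathway, in 6 lists by role, 71 were tested, and 4 were higher and 0 lower in the average EphB2 effect (edgeR), where 1.03% of all genes passed. At an unadjusted p under 0.05 there were 20 of the 71 in either direction (13% of all genes), and by DESeq2 8 were higher and 0 lower (3.73% of all genes passed). NFKBIA, which encodes the inhibitor IkB-alpha, had 40.0 ± 3.46 CPM in Ctrl against 55.0 ± 2.42 CPM in EphB2 cells, and 38.7 ± 1.12 against 66.8 ± 5.59 CPM under ephrin-B1 siRNA (SD, n = 3; averaged log2 fold change 0.62, SE 0.059, adjusted p = 0.00111, edgeR). NFKB2, the NF-kB subunit that NIK leads to be processed, was higher by 0.57 on the log2 scale (SE 0.076, adjusted p = 0.00547), and NFKBIE, another inhibitor, by 0.53 (SE 0.099, adjusted p = 0.0321, both edgeR). These 3 belonged to the list of 10 NF-kB subunits and IkB proteins, of which all 10 had positive estimates (median log2 fold change 0.35). The fourth was CFLAR, which encodes the caspase-8 inhibitor c-FLIP (0.28, SE 0.056, adjusted p = 0.0430, edgeR).

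None of the 11 TNF family ligands tested, of 13 listed, passed in the average EphB2 effect, nor did any of 16 receptors, 10 linear ubiquitin and A20 partners or 11 TAK1 and IKK kinases (edgeR). At an unadjusted p under 0.05 there were 0 ligands, 4 receptors, 1 of the ubiquitin list and 4 kinases, and by DESeq2 the receptors CD40 and TNFRSF9 and the kinase subunit IKBKG passed. In the interaction 0 of the 71 passed by edgeR and by DESeq2, and 2 had an unadjusted p under 0.05. With the block, 20 of the 71 genes were higher and TNFRSF10D, RNF11, TAB1 and TAB3 lower, where 14% of all genes passed. Among the higher ones, named here after their values were seen, were CD40 (0.40, SE 0.036, adjusted p = 1.02e-05) and TNFRSF9 (1.51, SE 0.26, adjusted p = 0.00162), receptors that signal through TRAFs, and TNFSF10, the ligand TRAIL (1.03, SE 0.14, adjusted p = 0.000265). TNF itself had at most 0.140 estimated counts in a library and rounded to 0 in all 12, which allows up to 3 counts, or 0.118 to 0.233 CPM, in each. In the average effect of ephrin-B1 siRNA, 3 of the 71 were higher and 1 lower, a share close to the 5.26% of all genes. TAB1 (0.18, SE 0.045), TBK1 (0.26, SE 0.063) and IKBKG (0.19, SE 0.050), which serve in the kinase complexes above NF-kB, were higher and the receptor TNFRSF21 (-0.60, SE 0.15) lower, with adjusted p of 0.0357 to 0.0477 (edgeR).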

How the data were processed

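RNA of HMC3 cells was sequenced in 12 libraries (ribosomal RNA depleted, paired reads). The authors quantified reads with kallisto (version not given in the sources used here) against Ensembl cDNA of GRCh38, and deposited for each library the estimated counts and TPM of 188753 transcripts. The estimated counts were deposited without further normalization, and TPM was computed by the authors with kallisto from those counts and the effective lengths. Of the transcripts, 167067 (88.5%) were paired by identifier with 36315 genes of GENCODE 44, holding 95.3% to 96.0% of the counts of a library, and transcripts without a partner were dropped.

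Transcripts of a gene were added up and the sum rounded to whole counts, which left 21601 genes at 10 or more in total. The main test was edgeR's (4.0.16) quasi-likelihood F-test with TMM scaling, 1 fit of all 4 groups without a block, two-sided, with Benjamini-Hochberg adjustment over all genes and a threshold of 0.05. The average effects are the mean of the contrasts in both arms. CPM are after TMM scaling. Intervals of 95% use the SE and the total degrees of freedom of edgeR. Each error is an SD over 3 libraries or a fitted SE. With the p-values it covers only the spread between these libraries, which the paper calls biological replicates and which are all of 1 cell line. Promoter windows are from RefSeq (GRCh38.p14). The edgeR fits, with and without the block, were tested on simulated counts for EphB2 vs Ctrl only, with no replicate effect put in. The averages and the interaction were not tested in this way.

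The alternatives were DESeq2 1.42.0, its size factors in edgeR, no filter, filterByExpr, a fit of just the groups compared, replicate number as a block (in edgeR, DESeq2 and limma, and without replicate 3), an offset for transcript length, limma 3.58.1 on log2(TPM + 1), the most abundant transcript, and leaving out each library and each replicate number. The submitted file names give same-numbered libraries the same experiment number, which is where the pairing comes from. The deviations of same-numbered libraries from their group means correlated in replicate 1 (r of 0.57 to 0.67 over 6 pairs) and replicate 2 (0.61 to 0.64), while replicate 3 had 0.01 to 0.18, so the data by themselves did not pair it and the block treats it as one all the same. The typical coefficient of variation between libraries (edgeR) was 0.182 without and 0.0649 with the block.

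All 10 regulators are named. Of each pathway list, the genes past the threshold in the comparison described are named and otherwise at most 3 with the smallest unadjusted p in EphB2 vs Ctrl, apart from genes said to be chosen after their values were seen and TNF, as the ligand of the pathway. Genes of like pattern are the 3 with the highest r of log2 CPM over the 12 libraries, for the highest or lowest regulators. The regulators, lists and tests were chosen with earlier results of these data known. Programs were R 4.3.3 and Python 3.11.15 (matplotlib 3.10.9, numpy 2.4.6, scipy 1.17.1, pandas 2.3.3).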

Additional observations from a re-analysis of the deposited data

How the results depend on the processing

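The direction of BIRC3, TNFAIP3, TRAF3 and TNIP1 in the average EphB2 effect was positive in every alternative run, as was that of TRAF1, TRAF2 and TNIP2, and that of MAP3K14 was negative. The estimates of BIRC2 (-0.09 to 0.19) and CYLD (-0.01 to 0.20), which passed in no fit without the block, were below 0 only on the log2(TPM + 1) scale, where the median of all genes was -0.11. With the replicate number as a block, in the pairing described, the count of regulators past the threshold rose in the average EphB2 effect from 4 to 9 (8 with the block in DESeq2), in EphB2 vs Ctrl from 0 to 7 (5), in EphB2-Fc over Ctrl-Fc with ephrin-B1 siRNA from 1 to 5 (4), in EphB2 + ephrin-B1 siRNA vs Ctrl from 2 to 7 (6), in EphB2 + ephrin-B1 siRNA vs EphB2 from 0 to 2 (2), in ephrin-B1 siRNA vs Ctrl from 0 to 1 (1) and in its average effect from 0 to 2 (2). The share of all genes that passed rose too, in the average EphB2 effect from 1.03% to 14% (11% with the block in DESeq2), and in the other comparisons with 2 groups to between 5.34% and 15.1% (5.09% to 12.7%). In the average effect of ephrin-B1 siRNA it rose from 5.26% to 20.6% (16.9%). With the block and no replicate 3 libraries the count fell from 9 to 5 in the average EphB2 effect, to 3 in EphB2 vs Ctrl, in EphB2-Fc over Ctrl-Fc with ephrin-B1 siRNA and in EphB2 + ephrin-B1 siRNA vs Ctrl, to 1 in the average effect of ephrin-B1 siRNA and to 0 in EphB2 + ephrin-B1 siRNA vs EphB2 and ephrin-B1 siRNA vs Ctrl. In that order, the share of all genes that passed was 5%, 0.678%, 0.818%, 5.65%, 10.6%, 1.61% and 4.02%. DESeq2 gave 5 in EphB2 vs Ctrl (0.94% of all genes) and 3 in EphB2-Fc over Ctrl-Fc with ephrin-B1 siRNA (1.25%). It gave 4 in EphB2 + ephrin-B1 siRNA vs Ctrl (5.3%). In the average EphB2 effect it gave 5 higher and 1 lower (3.73%). No filter gave 1 in EphB2 vs Ctrl (0.0443% of all genes), and filterByExpr gave 2 in EphB2-Fc over Ctrl-Fc with ephrin-B1 siRNA (0.259%). In the average EphB2 effect filterByExpr gave 4 higher and MAP3K14 lower (2.16%), with an adjusted p of 0.0488 for MAP3K14 (edgeR). Only the groups compared gave 1 in EphB2 + ephrin-B1 siRNA vs Ctrl (0.471%). An offset for transcript length gave 3 in the average EphB2 effect (0.31% of all genes). It gave 0 in EphB2-Fc over Ctrl-Fc with ephrin-B1 siRNA (0.0324%) and 1 in EphB2 + ephrin-B1 siRNA vs Ctrl (0.579%). Limma on log2(TPM + 1) gave 0 in EphB2-Fc over Ctrl-Fc with ephrin-B1 siRNA (0.00926% of all genes, 5.7% with the block). It also gave 0 in EphB2 + ephrin-B1 siRNA vs Ctrl (0.0185%, 0.745% with the block). In the average EphB2 effect limma gave 0 (0.0926%), or 1 with the block (6.47%). The most abundant transcript gave 2 in the average EphB2 effect (0.226% of all genes) and 1 in EphB2 + ephrin-B1 siRNA vs Ctrl (0.869%). The cause of these differences was not tested.

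Leaving out libraries or replicate numbers, the counts ran from 0 to 4 in the average EphB2 effect, from 0 to 1 in EphB2 vs Ctrl, from 0 to 2 in EphB2-Fc over Ctrl-Fc with ephrin-B1 siRNA and, in EphB2 + ephrin-B1 siRNA vs Ctrl, from 0 to 2. In that order, the share of all genes that passed ran from 0% to 0.719%, 0.0699%, 0.126% and 2.12%. The counts stayed at 0 in the others, where at most 5.13% of all genes passed. Without all replicate 3 libraries, 0 of 10 passed in the average EphB2 effect (0% of all genes). The log2 fold change of BIRC3 was 1.28 there (adjusted p = 0.729, edgeR). BIRC3 passed without replicate 1 or 2. The interaction gave 0 in every alternative. Only the groups compared gave no value for the interaction and the averages, which use all groups. TRAF1, with 20 to 151 counts in a library, had the largest counting error of the regulators.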
